A study of Mus musculus with 6 samples.

Results

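Listed here are 44 mouse genes of macrophages and monocytes, taken by symbol out of the 55291 genes in a table of raw read counts. All 44 symbols were found in the table. Marco, a scavenger receptor gene, had 0 counts in every library, and the other 43 had counts and were tested. The libraries were labelled as lymphocytes, not as macrophages. Natural killer (NK) cells and type 1 innate lymphoid cells (ILC1s), related lymphocytes of the innate immune system, were sorted from tumours that grew under the skin of wild-type C57BL/6 mice for 14 days. The tumours were made from MC38, a colon carcinoma cell line of C57BL/6 origin. Every group shared this host, tumour and time point, no drug or altered allele is named, and each cell type had 3 libraries. Whether the libraries of a cell type stem from different mice is not in the labels, and p-values therefore cover the spread among these samples alone, which may be technical. Nor do the sources used here give the surface markers of the sorts.

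Macrophages are phagocytes that take up dead cells, microbes and lipoproteins and break them down in lysosomes. They depend on the growth factor receptor CSF1R and on the transcription factor PU.1, encoded by Spi1, and in tumours they arise largely from blood monocytes. Tumour macrophages are known for complement C1q, apolipoprotein E, cathepsins, arginase 1 and osteopontin, and their levels of each vary with where and how long they have been in the tissue.

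The libraries held 16931099 to 20224847 counts, and levels are in CPM (counts scaled to a common library size with TMM factors). A gene with 0 counts could be present at up to 3 counts, which is 0.144 to 0.174 CPM, for counting error only. ILC1 replicate 3 stood apart from the other 5 libraries in the macrophage genes and is therefore given by name throughout, with values for the comparison of cell types with and without it. It still carried mRNA of genes of the labelled lymphocytes, though at a lower summed level than the other libraries. Ncr1 and Klrb1c, receptor genes of NK cells and ILC1s, were at 330 and 355 CPM in that library, and at 347 to 361 and 338 to 359 CPM in the other ILC1 samples. Itga1, an ILC1 integrin gene, was at 177 CPM in it and at 130 to 148 CPM in the other ILC1 libraries, and at 39.9 to 53.0 CPM in the NK libraries. The 12 lymphocyte genes listed together summed to 8105 CPM in ILC1 replicate 3, to 8829 and 9482 CPM in ILC1 replicates 2 and 1 and to 9965 to 15009 CPM in the NK libraries. Without TMM factors the sum was 6925 CPM in ILC1 replicate 3 and 9129 and 10076 CPM in ILC1 replicates 2 and 1. In bulk RNA of this kind, fewer cells of a type and less RNA per cell cannot be told apart.

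To show what many of these genes share in sequence, the 250 bases before the start site were read from RefSeq promoters on GRCm38.p6, which matched 31 of the 44 genes with 35 promoters. The letters GAGGAA, the core of the purine-rich box that PU.1 is known to bind, were searched on both strands. They lay in 19 of the 35 promoters (54.3%) and in 23.3% of all 32851 promoters of the same length. TTGCNNAA, a C/EBP-type site, was in 8.57% against 9.56%, and TGANTCA, an AP-1-type box that reads as itself on the other strand, in 11.4% against 6.75%. The 5 promoters below are those of a growth factor receptor chain (Csf2ra), an Fc receptor (Fcgr1), a C1q chain (C1qb) and a lipid receptor (Trem2), with that of Gpnmb, a gene whose levels ran differently and whose window held no match. They lie at chr19:61228419-61228668, chr3:96293970-96294219 and chr4:136886201-136886450 on the reverse strand, and at chr17:48346151-48346400 and chr6:49036268-49036517 on the forward strand. Each is written 5′ to 3′ on the strand of its gene, ending just before the RefSeq start site, and capitals mark the matches, which read TTCCTC where they lie on the other strand.
Csf2ra: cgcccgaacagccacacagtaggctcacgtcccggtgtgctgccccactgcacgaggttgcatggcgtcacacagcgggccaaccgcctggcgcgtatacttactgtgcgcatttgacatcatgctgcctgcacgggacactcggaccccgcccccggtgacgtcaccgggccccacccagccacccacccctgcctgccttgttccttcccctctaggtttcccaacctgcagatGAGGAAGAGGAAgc
Fcgr1: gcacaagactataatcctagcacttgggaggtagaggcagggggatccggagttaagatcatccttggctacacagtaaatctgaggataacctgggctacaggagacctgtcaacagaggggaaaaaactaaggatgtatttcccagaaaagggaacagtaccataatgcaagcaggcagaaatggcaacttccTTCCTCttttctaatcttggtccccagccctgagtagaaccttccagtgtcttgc
C1qb: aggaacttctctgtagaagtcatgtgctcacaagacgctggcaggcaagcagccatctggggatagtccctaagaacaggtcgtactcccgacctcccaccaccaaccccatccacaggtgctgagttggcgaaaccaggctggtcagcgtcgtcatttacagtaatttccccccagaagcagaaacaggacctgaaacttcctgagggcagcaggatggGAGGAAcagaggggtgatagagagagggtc
Trem2: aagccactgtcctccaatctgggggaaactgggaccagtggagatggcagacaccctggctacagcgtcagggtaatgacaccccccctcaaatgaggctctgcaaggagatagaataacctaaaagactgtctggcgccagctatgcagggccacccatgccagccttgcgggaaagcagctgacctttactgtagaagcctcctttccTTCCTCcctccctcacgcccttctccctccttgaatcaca
Gpnmb: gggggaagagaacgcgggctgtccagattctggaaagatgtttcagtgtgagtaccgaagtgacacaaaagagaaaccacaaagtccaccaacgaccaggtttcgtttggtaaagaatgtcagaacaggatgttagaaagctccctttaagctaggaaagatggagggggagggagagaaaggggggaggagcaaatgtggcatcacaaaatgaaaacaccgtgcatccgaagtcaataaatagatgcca
The matches in Csf2ra began 14 and 8 bases before the start site and abutted. Those in C1qb, Trem2 and Fcgr1 lay 30, 40 and 55 bases before it, counted to the first of the 6 letters. A match describes letters in a window and is not a binding measurement. The windows of Lyz2, Il1b, Tgfbi and Chil3, genes far higher in ILC1 replicate 3 than elsewhere, also held no match. That of Marco, with 0 counts in every library, held 1. Matches were not tested against levels.

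The members took 3.72% of all counts in ILC1 replicate 3 (95% Wilson interval 3.71 to 3.73%, counting error only), against 0.0779 to 0.251% in the other 5 libraries. Their summed level was 1079, 789 and 1670 CPM in NK replicates 1 to 3 and 2363, 2264 and 43550 CPM in ILC1 replicates 1 to 3. The sums of ILC1 replicates 1 and 2 thus lay above those of every NK library, and that of NK replicate 3 lay between them and those of NK replicates 1 and 2. Of the 43 genes with counts, 40 were highest in ILC1 replicate 3, and for each of these the level was over 2-fold above that in every other library. For comparison, 24.8% of the 14475 genes tested were highest in that library. The level was over 10-fold above every other library for 34 of the 43 genes and over 30-fold for 12 of them, where 1.54% of all genes tested were over 10-fold above. The ratio of ILC1 replicate 3 to the highest of the other 5 libraries had a median of 23.2 and ran from 0.686 (Cd163) to 89.1 (Fcgr1). Gpnmb and Vcan, which were highest in ILC1 replicate 2, and Cd163, which was highest in NK replicate 1, were the exceptions. This is a difference between single libraries and has no replicate.

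**Figure D1:**
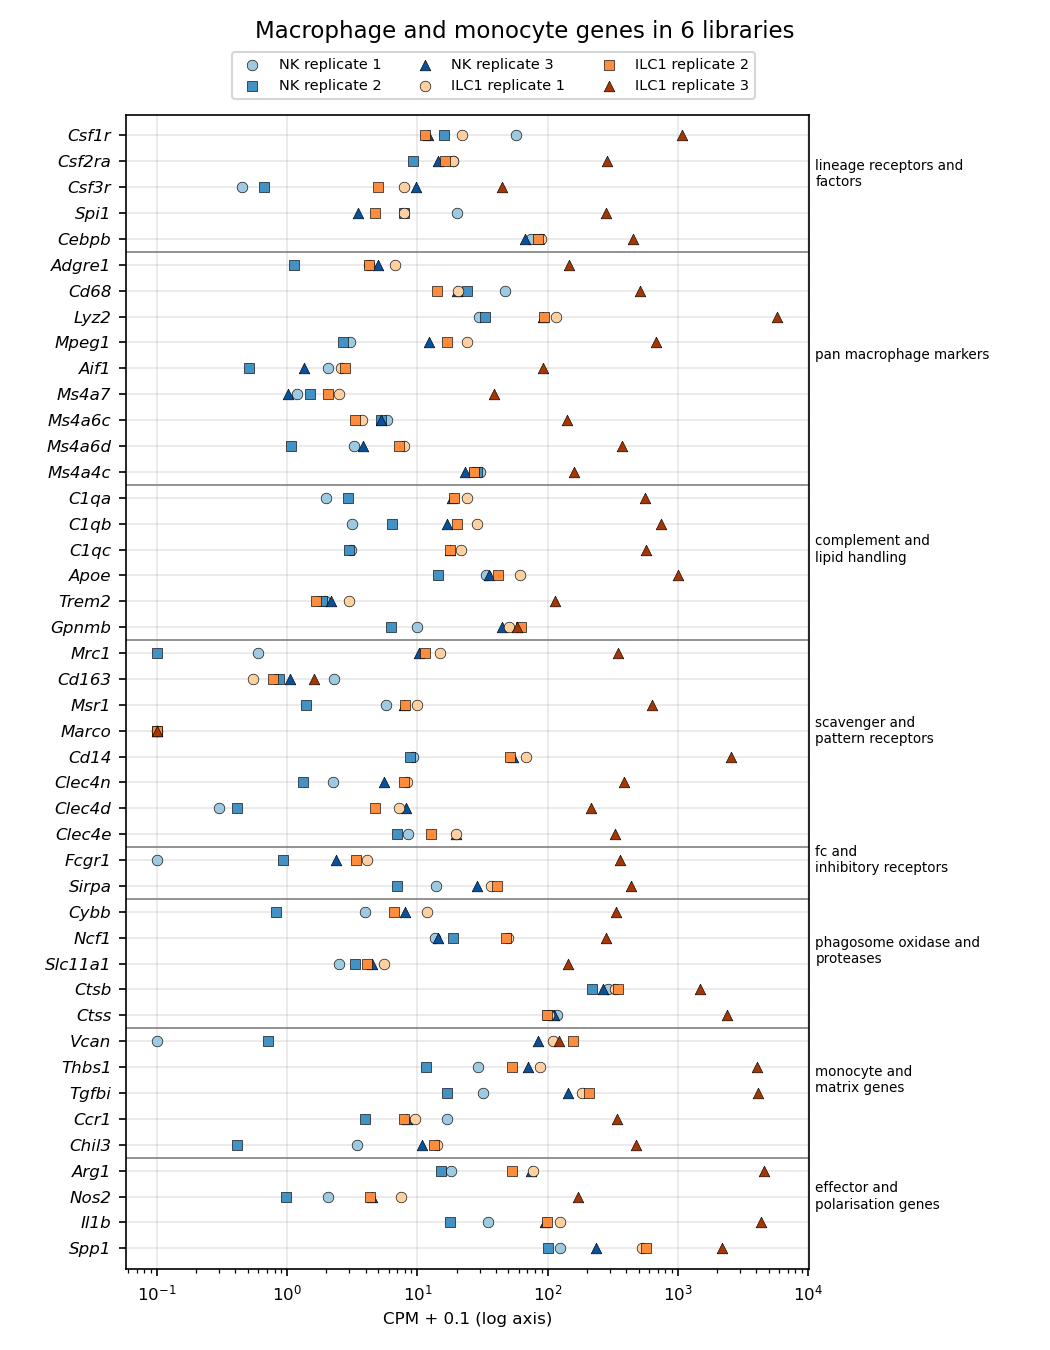
Level of each of the 44 genes in the 6 libraries, in CPM plus 0.1 on a log axis, grouped by role, with 1 point per library (blue for NK, orange for ILC1). The points of ILC1 replicate 3 lie to the right of all others for 40 genes, while Gpnmb, Vcan and Cd163 do not follow and Marco is at 0 in every library.

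Receptors and factors of the myeloid lineage were highest in ILC1 replicate 3 for 5 of 5 genes. Csf1r, the receptor for the macrophage growth factor CSF1, was at 56.8, 16.01 and 11.9 CPM in NK replicates 1 to 3 and at 21.7, 11.4 and 1075 CPM in ILC1 replicates 1 to 3. Spi1 was at 20.1, 7.80 and 3.41 CPM in the NK libraries and at 7.78, 4.62 and 280 CPM in the ILC1 libraries. For both genes the second highest library was NK replicate 1, and ILC1 replicates 1 and 2 were not above the NK range. Csf2ra, the alpha chain of the GM-CSF receptor, was at 9.18 to 18.6 CPM in the other 5 libraries and at 285 CPM in ILC1 replicate 3. Csf3r, the receptor for the neutrophil growth factor G-CSF, was lower, at 44.8 CPM in ILC1 replicate 3 and at 0.349 to 9.64 CPM in the others. Cebpb, a transcription factor gene active in many cell types, was at 67.0 to 88.4 CPM in the other 5 libraries and at 451 CPM in ILC1 replicate 3, a ratio of 5.10 to the highest of the others. Its exons overlap those of Tmem189 on the other strand over 20.7% of their bases, and Csf1r overlaps Hmgxb3 over 15.1%. Whether the counting used strand is not given in the sources used here, so reads in those stretches cannot be assigned for certain. Tmem189 was at 271 CPM in ILC1 replicate 3 and at 67.5 to 94.8 CPM in the others. Hmgxb3 was at 36.0 CPM in that library and at 35.9 to 55.6 CPM in the others. The part of these neighbours in the counts of Cebpb and Csf1r was not tested.

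General macrophage markers were highest in ILC1 replicate 3 for 9 of 9 genes. Lyz2, which encodes macrophage lysozyme, was at 29.8, 32.8 and 92.4 CPM in NK replicates 1 to 3 and at 116, 94.0 and 5829 CPM in ILC1 replicates 1 to 3. NK replicates 1 and 2 were lowest, NK replicate 3 and ILC1 replicates 1 and 2 lay together above them, and ILC1 replicate 3 was 50.0-fold above the next library. Adgre1, which encodes the macrophage surface protein F4/80, was at 4.14, 1.03 and 4.89 CPM in the NK libraries and at 6.61, 4.14 and 145 CPM in the ILC1 libraries. Cd68, a lysosomal membrane protein gene, was at 46.98, 23.7 and 19.96 CPM in the NK libraries and at 20.5, 14.1 and 511 CPM in the ILC1 libraries. Leaving ILC1 replicate 3 aside, Cd68 in the ILC1 libraries was not above the NK range. Mpeg1, a pore-forming protein gene of phagocytes, reached 675 CPM and Aif1, which encodes the actin-binding protein IBA1, 91.5 CPM in ILC1 replicate 3, against at most 23.9 and 2.68 CPM elsewhere. Among the membrane proteins of the Ms4a family, Ms4a6d reached 375 CPM, Ms4a4c 160 CPM, Ms4a6c 140 CPM and Ms4a7 38.9 CPM in that library. Ms4a4c was the member of this family with the highest level elsewhere, at 23.1 to 30.2 CPM in the other 5 libraries. The 4 genes lie in a single cluster on chromosome 19 (Ms4a7 from 11321039, Ms4a6d to 11604849, GRCm38). Reads of 50 bases can match other genes as well: 51.4% of the 50-base stretches of Ms4a6c occur in other genes, among them BE692007, which overlaps 53.1% of its exon bases on the other strand, and 8.19% of those of Ms4a4c occur in Ms4a4b or Ms4a4d. For each of the 4 listed genes, at most 4 sharing genes were kept, those with the most shared stretches, and none of these was another listed gene. Sharing with further genes was not examined. Ms4a4b was abundant, at 326 CPM in ILC1 replicate 3 and at 395 to 1022 CPM in the others. Its part in the counts of Ms4a4c was not tested. Counts of Ms4a6c are uncertain to the extent of its shared stretches. The same holds for 15.4% of the stretches of Lyz2, which are shared with Lyz1, a gene with 0 to 73 counts per library.

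Complement and lipid genes were highest in ILC1 replicate 3 for 5 of 6 genes. C1qa, which encodes a chain of the C1q recognition protein of complement, was at 1.90, 2.82 and 18.4 CPM in NK replicates 1 to 3 and at 24.1, 19.1 and 559 CPM in ILC1 replicates 1 to 3. C1qb and C1qc, the other chains, reached 745 and 571 CPM in ILC1 replicate 3 and 2.87 to 28.6 CPM in the others. The chain genes lie side by side on the reverse strand of chromosome 4 (C1qb from 136880129, C1qa to 136898803, GRCm38), and no stretch of 50 bases in them occurs in another gene. For all 3 chains, NK replicates 1 and 2 were the lowest libraries. Apoe, which encodes a carrier of cholesterol made by macrophages and other cells, was at 33.4, 14.4 and 35.5 CPM in the NK libraries and at 61.2, 41.2 and 1012 CPM in the ILC1 libraries. Trem2, a lipid-sensing receptor gene of tissue and tumour macrophages, was at 1.85, 1.74 and 2.06 CPM in the NK libraries and at 2.89, 1.56 and 114 CPM in the ILC1 libraries. Gpnmb, a glycoprotein gene of lipid-laden macrophages that other cells also use, behaved differently, at 9.78, 6.21 and 44.3 CPM in the NK libraries and at 50.4, 62.4 and 57.7 CPM in the ILC1 libraries. ILC1 replicate 3 therefore did not stand apart in Gpnmb, and NK replicate 3 lay with the ILC1 libraries.

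Scavenger and pattern recognition receptors were highest in ILC1 replicate 3 for 6 of the 7 genes with counts. Mrc1, the mannose receptor CD206, was at 0.499, 0 and 10.3 CPM in NK replicates 1 to 3 and at 14.8, 11.3 and 344 CPM in ILC1 replicates 1 to 3. Cd14, a co-receptor for bacterial lipopolysaccharide, reached 2558 CPM in ILC1 replicate 3 against 8.67 to 68.5 CPM elsewhere, and Msr1, a scavenger receptor gene for modified lipoproteins, 629 CPM against 1.28 to 9.78 CPM. The C-type lectin receptor genes Clec4n, Clec4e and Clec4d, which sense fungal and mycobacterial sugars and lipids and lie together on chromosome 6 (123229843 to 123289870, GRCm38), reached 388, 332 and 216 CPM. Elsewhere Clec4n and Clec4d were at most 8.23 and 8.11 CPM and Clec4e was at 6.87 to 19.8 CPM. The 2 remaining scavenger receptors were all but missing from the library that was rich in the rest. Cd163, which takes up haemoglobin bound to haptoglobin, was at 2.19, 0.770 and 0.959 CPM in the NK libraries and at 0.445, 0.681 and 1.50 CPM in the ILC1 libraries, and Marco had 0 counts in all 6 libraries, which allows a level of up to 0.144 to 0.174 CPM.

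Fcgr1, which encodes the high-affinity IgG receptor CD64, was at 0, 0.821 and 2.25 CPM in NK replicates 1 to 3 and at 4.002, 3.26 and 357 CPM in ILC1 replicates 1 to 3. This was the widest gap among the listed genes. Sirpa, the inhibitory receptor that binds CD47, was at 13.7, 6.82 and 28.5 CPM in the NK libraries and at 36.9, 40.6 and 438 CPM in the ILC1 libraries, and its groups did not overlap.

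Genes of the phagosome, the oxidase and lysosomal proteases were highest in ILC1 replicate 3 for 5 of 5 genes, but some had a high level in all libraries. Cybb, the catalytic subunit of the phagocyte NADPH oxidase, was at 3.89, 0.718 and 7.92 CPM in NK replicates 1 to 3 and at 11.8, 6.52 and 335 CPM in ILC1 replicates 1 to 3. Ncf1, a cytosolic subunit of the same oxidase, was at 13.6, 18.8 and 14.3 CPM in the NK libraries and at 49.6, 47.6 and 283 CPM in the ILC1 libraries. Each ILC1 library was above each NK library for Ncf1, and ILC1 replicates 1 and 2 lay close together. Slc11a1, a metal ion transporter gene of the phagosome membrane, reached 144 CPM in ILC1 replicate 3 and 2.39 to 5.45 CPM elsewhere. Ctsb, the lysosomal protease cathepsin B, was at 290, 220 and 264 CPM in the NK libraries and at 332, 349 and 1488 CPM in the ILC1 libraries. Ctss, cathepsin S, which processes antigen in the lysosome, was at 98.2 to 119 CPM in the other 5 libraries and at 2386 CPM in ILC1 replicate 3. Ctsb and Ctss were therefore well above the detection limit in all 6 libraries. The exons of Ctsb overlap those of Fdft1 on the other strand over 12.8% of their bases, and those of Ncf1 overlap Gtf2ird2 over 11.1%. Across the libraries Fdft1 was at 24.6 to 77.8 CPM and Gtf2ird2 at 16.7 to 29.8 CPM.

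Genes of monocytes and of the matrix that monocytes and macrophages lay down were highest in ILC1 replicate 3 for 4 of 5 genes. Tgfbi, an adhesion protein gene induced by TGF-beta, reached 4157 CPM and Thbs1, which encodes thrombospondin 1, 4083 CPM in ILC1 replicate 3, against 16.8 to 207 and 11.6 to 87.3 CPM in the others. Chil3, which encodes the chitinase-like protein Ym1, was at 3.34, 0.308 and 10.7 CPM in NK replicates 1 to 3 and at 14.1, 13.4 and 479 CPM in ILC1 replicates 1 to 3. The near copy Chil4, with which Chil3 shares 26.9% of its 50-base stretches, had 0 or 1 count per library. Ccr1, a chemokine receptor gene, reached 339 CPM in ILC1 replicate 3 and had its second highest level, 16.9 CPM, in NK replicate 1. Vcan, which encodes the matrix proteoglycan versican made by monocytes and by fibroblasts, was at 0, 0.616 and 84.4 CPM in the NK libraries and at 111, 157 and 122 CPM in the ILC1 libraries. Like Gpnmb, Vcan was high in NK replicate 3 and in all 3 ILC1 libraries and low in NK replicates 1 and 2.

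Effector genes were highest in ILC1 replicate 3 for 4 of 4 genes. Arg1, arginase 1, which breaks down arginine, was at 17.9, 15.1 and 74.4 CPM in NK replicates 1 to 3 and at 77.6, 52.9 and 4601 CPM in ILC1 replicates 1 to 3. Il1b, which encodes the inflammatory cytokine interleukin 1 beta, was at 34.8, 17.7 and 96.1 CPM in the NK libraries and at 125, 98.6 and 4348 CPM in the ILC1 libraries. Nos2, inducible nitric oxide synthase, reached 172 CPM in ILC1 replicate 3 and 0.872 to 7.39 CPM elsewhere. Spp1, which encodes the secreted glycoprotein osteopontin, was at 123, 101 and 234 CPM in the NK libraries and at 531, 570 and 2192 CPM in the ILC1 libraries. Its 3 ILC1 libraries were all above its 3 NK libraries, and ILC1 replicate 3 was 3.84-fold above the next library, the smallest such ratio among the 40 genes highest there. Its exons overlap the gene model Gm42793, at 0 to 121 counts per library, over 18.8% of their bases.

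Which of these genes dominated can be compared only per length. RPKM values, which divide the scaled counts by the length of a gene's exons, were computed from the same counts with exon lengths of GENCODE M21. Within ILC1 replicate 3, Lyz2 came first at 4429 RPKM, followed by Il1b at 2280, Arg1 at 2065, Ctss at 1757, Cd14 at 1477, Spp1 at 1330 and Tgfbi at 1102 RPKM. The C1q chain genes C1qb and C1qa were at 685 and 537 RPKM, Thbs1 at 672 and Apoe at 473 RPKM. Thus inflammatory, arginine-metabolism and complement genes were at high levels in the same library. Levels per length of the growth factor receptor Csf1r (186 RPKM) and of Spi1 (104 RPKM) were in the middle, and those of Mrc1 (54.0 RPKM), Adgre1 (44.8 RPKM) and Trem2 (23.0 RPKM) were lower. Gpnmb was at 8.86 RPKM, or at 15.6 RPKM when the longest transcript gave the length, Ms4a7 at 8.73, Vcan at 8.45 and Cd163 at 0.275 RPKM. Arg1 exceeded Nos2 per length 53.1-fold in ILC1 replicate 3 and 18.2- to 34.4-fold in the other libraries. In those other libraries Ctss came first in NK replicates 1 and 2, at 87.4 and 74.4 RPKM, while Spp1 led in the remaining NK library, at 142 RPKM, and in ILC1 replicates 1 and 2, at 322 and 346 RPKM.

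**Figure D2:**
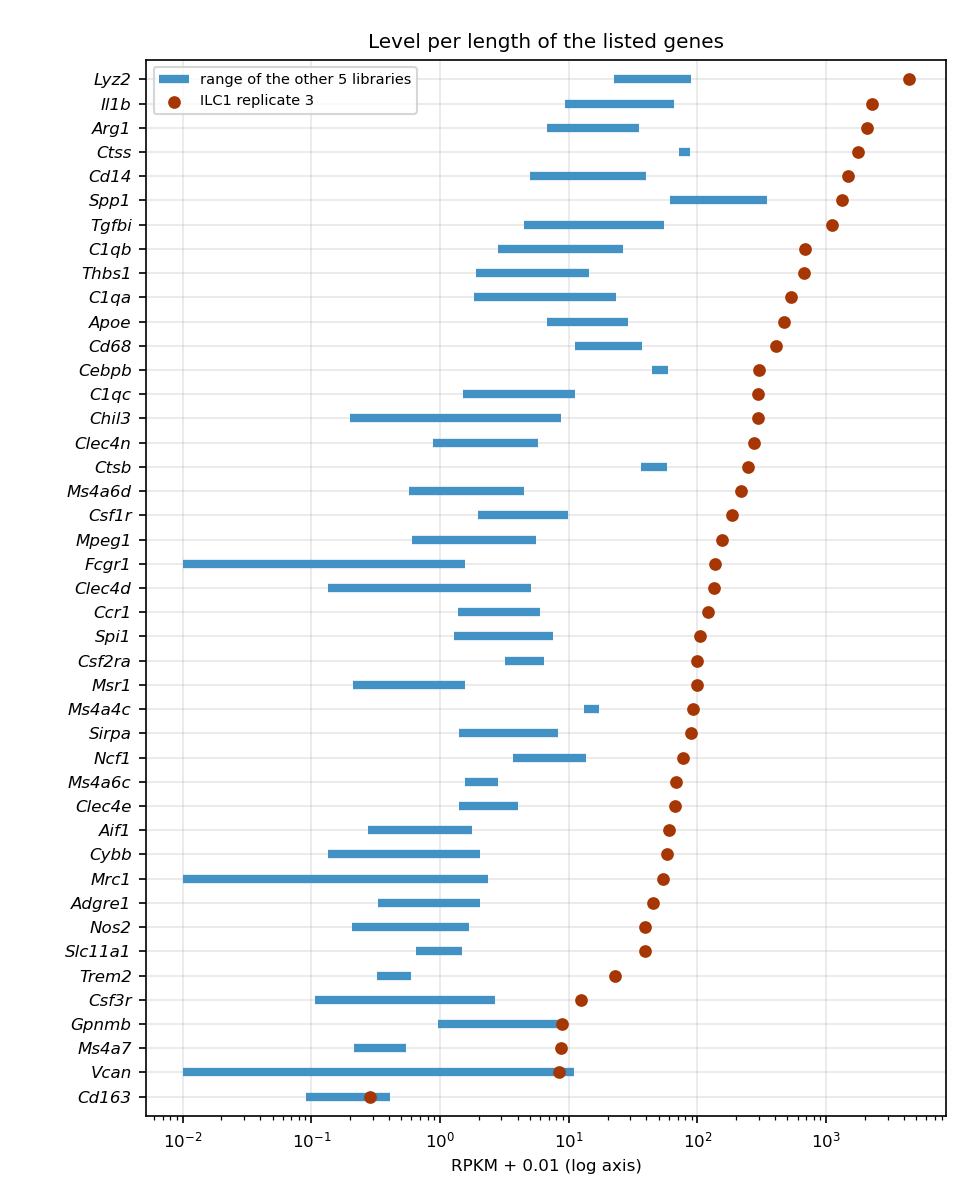
Level per length of the 43 genes with counts, in RPKM plus 0.01 on a log axis, ordered by ILC1 replicate 3 (points), with bars from the lowest to the highest of the other 5 libraries. Lyz2, Il1b and Arg1 lead at 2065 to 4429 RPKM, and only Gpnmb, Vcan and Cd163 have their point within the bar of the others.

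Other genes of the same cells, listed apart from the 44, went the same way in part. That list was also chosen with earlier results of these data known, so it is no independent check. Of 37 further macrophage genes, 34 were tested, 0 passed edgeR's test in either direction, and 9 were at an unadjusted p under 0.05, all higher in ILC1s. Over all genes tested, 0.076% passed as higher and 6.95% were higher at an unadjusted p under 0.05. The 34 genes had a median log2 fold change (ILC1 minus NK) of 2.17, against 0.0813 over all genes. Of the 37 genes, 33 were highest in ILC1 replicate 3, where 24.8% of all genes tested were, and the list summed to 13318 CPM there, against 3295 to 4174 CPM in the others. Fcgr2b, the inhibitory IgG receptor, was at 1306 CPM in ILC1 replicate 3 and at 13.4 to 25.5 CPM elsewhere, and Fcgr3, an activating IgG receptor that NK cells also carry, at 976 CPM and 65.4 to 131 CPM. Tyrobp and Fcer1g, signalling adaptors shared by NK cells and macrophages, were at 1073 and 806 CPM in that library and at 416 to 1221 and 383 to 634 CPM in the others. Ctsz, a lysosomal protease gene, was at 699 CPM in ILC1 replicate 3 and 51.7 to 109 CPM in the others. Ctsd barely differed, at 981 CPM in ILC1 replicate 3 and 510 to 961 CPM in the others. Cyba and Lilrb4a were at 750 and 711 CPM in ILC1 replicate 3 and at 185 to 439 and 133 to 287 CPM in the others. Folr2, Lyve1 and Slc40a1, which mark resident macrophages in many tissues and were named after their values were seen, were at 1.16, 0.926 and 0.174 CPM in ILC1 replicate 3 and at most 0.611 CPM in the others. Of 10 monocyte genes the highest was Fn1, fibronectin, at 5887 CPM in ILC1 replicate 3. It was at 2.99, 6.47 and 427 CPM in NK replicates 1 to 3 and at 543 and 575 CPM in the remaining ILC1 libraries. Ccr2, a chemokine receptor gene that lymphocytes use as well, did not stand apart, at 943 CPM in ILC1 replicate 3 and 474 to 1010 CPM in the others.

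In the other 5 libraries the level of the listed genes was low but above 0. Counts were found in all 6 libraries for 40 of the 44 genes, and 31 were above 1 CPM in every library. Among these 5 libraries the highest level was in ILC1 replicate 1 for 26 genes, in NK replicate 1 for 8, in ILC1 replicate 2 for 7, in NK replicate 3 for 2 and in NK replicate 2 for 0. The lowest was in NK replicate 2 for 24 genes. NK replicate 3 was above both other NK libraries for 29 of 43 genes, where this held for 42.7% of all genes tested. ILC1 replicates 1 and 2 were both above NK replicates 1 and 2 for 31 of 43 genes, where this held for 39.4% of all genes tested. The 8 genes that were highest of the 5 in NK replicate 1 were Csf1r, Spi1, Cd68, Ccr1, Ctss, Cd163, Ms4a6c and Ms4a4c. As a description, the log2 levels of the 43 genes (with 1 CPM added) had a Pearson correlation of 0.977 between NK replicate 3 and ILC1 replicate 1, of 0.988 between ILC1 replicates 1 and 2 and of 0.935 between NK replicates 1 and 2. Between ILC1 replicate 3 and each of the others it was 0.565 to 0.744. Over all genes tested, the first 3 pairs had 0.983, 0.993 and 0.978, so their likeness was not particular to the listed genes. ILC1 replicate 3 and each of the others then had 0.885 to 0.900. The points of these correlations are genes that share libraries, lengths and base composition.

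Whether the low levels kept the proportions of ILC1 replicate 3 was examined by dividing the counts of each gene by the summed counts of the 3 C1q chain genes in the same library, which were 159, 233 and 1104 in NK replicates 1 to 3 and 1338, 1163 and 32402 in ILC1 replicates 1 to 3. For 40 genes this gave a ratio that can be set against that of ILC1 replicate 3. The ratio was within 2-fold of it for 27 genes in ILC1 replicate 1, 24 in ILC1 replicate 2, 23 in NK replicate 3, 12 in NK replicate 2 and 11 in NK replicate 1. The median relative ratio was 0.983, 0.923 and 1.07 in ILC1 replicates 1 and 2 and NK replicate 3, and 1.88 and 4.48 in NK replicates 2 and 1. Il1b kept its proportion to C1q, at 2.32 in ILC1 replicate 3 and 1.68 to 1.82 in ILC1 replicates 1 and 2 and NK replicate 3, and Mrc1 did so at 0.184 against 0.194 to 0.200. Arg1 was at 2.45 against 0.936 to 1.40 in the same 3 libraries. Genes with much more mRNA per C1q outside ILC1 replicate 3 were Ctsb (4.46 to 36.6 against 0.794), Cebpb (1.19 to 9.42 against 0.241), Ms4a4c (0.364 to 3.81 against 0.0855), Spp1 (4.41 to 15.6 against 1.17), Gpnmb (0.519 to 1.23 against 0.0308) and Cd163 (0.00598 to 0.277 against 0.000802). In NK replicate 1 the macrophage receptor Csf1r also had 7.16 counts per C1q count (exact 95% interval 6.06 to 8.50), against 0.574 (0.563 to 0.584) in ILC1 replicate 3. With Lyz2 as the reference, 14, 14, 21, 21 and 24 of 42 genes were within 2-fold in NK replicates 1 to 3 and ILC1 replicates 1 and 2. The median relative ratio was then 1.96, 1.75 and 1.94 in ILC1 replicates 1 and 2 and NK replicate 3, and 1.76 and 3.22 in NK replicates 2 and 1. How close the medians came to ILC1 replicate 3 thus depended on the reference.

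**Figure D3:**
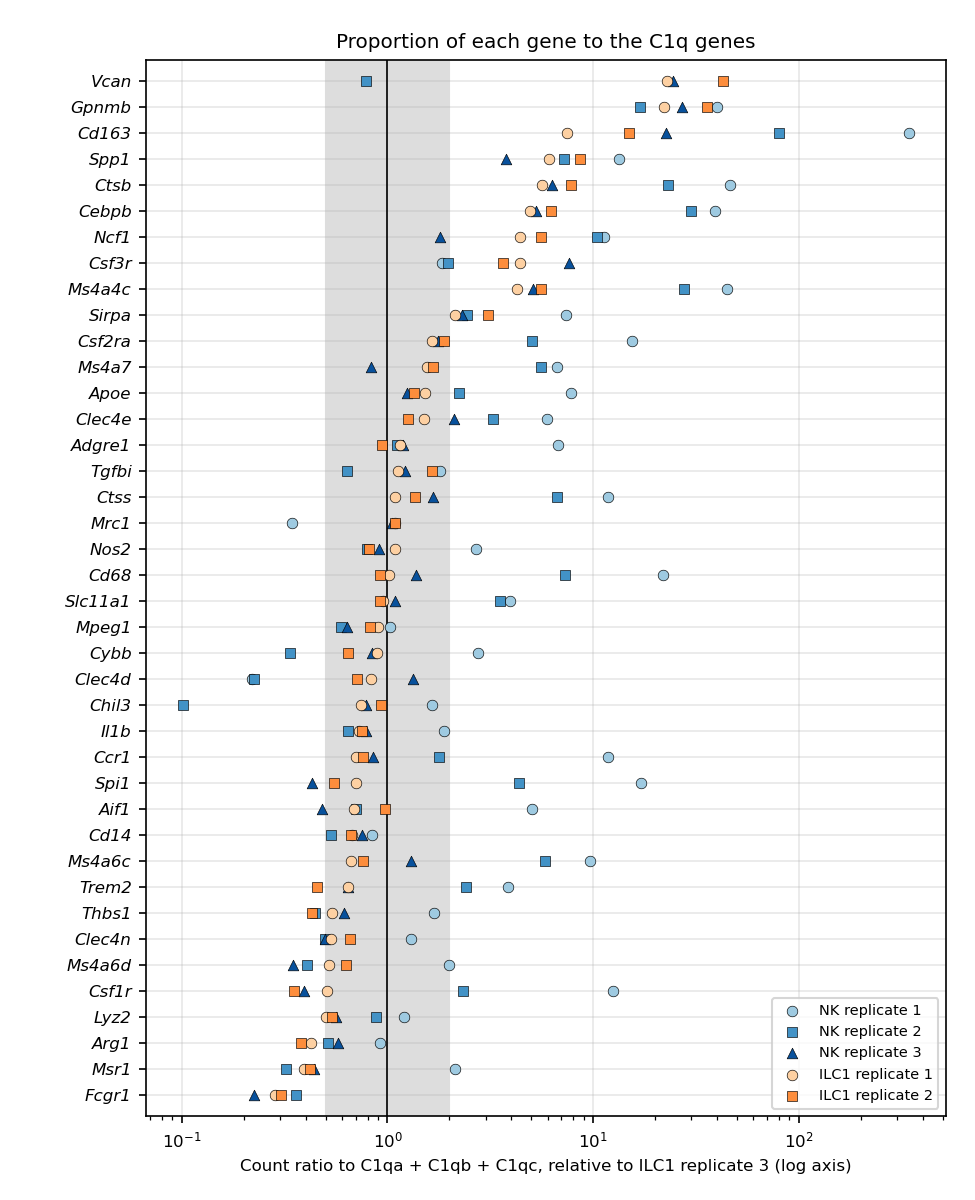
Counts of each of 40 genes divided by the summed counts of C1qa, C1qb and C1qc, relative to the same ratio in ILC1 replicate 3 (vertical line at 1; grey, within 2-fold), on a log axis with 1 point per library and genes with a ratio of 0 left undrawn. In ILC1 replicate 1 27 points lie in the grey band and in NK replicate 1 11 do.

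Markers of other cell types moved with some of these differences. The summed level of 10 fibroblast genes was 8.73, 13.1 and 968 CPM in NK replicates 1 to 3 and 1153, 1709 and 62.1 CPM in ILC1 replicates 1 to 3, led by Col3a1 and Sparc. Gpnmb, Vcan and Fn1 were high in the 3 libraries with these genes as well as in ILC1 replicate 3, and the part of the fibroblast genes in those values was not tested. NK replicate 1, the library with the second highest Csf1r and Spi1, also had the highest level of mast cell and basophil genes, with Tpsb2 at 18.7 CPM, Gata2 at 19.95 CPM and Mcpt8 at 15.3 CPM, where the other libraries had at most 4.31, 1.83 and 1.41 CPM. Kit, which lymphocytes can also carry, was at 76.0 to 119 CPM in all 6 libraries. Among 12 neutrophil genes, Mmp9 was at 451 CPM there, while Ly6g, which defines neutrophils, was at 0 in it. These were not tested against Csf1r or Spi1. In ILC1 replicate 3 the 12 dendritic cell genes summed to 951 CPM, against 541 to 914 CPM in the others, and 7 of the 12 were highest there. Itgax, the most abundant, was at 572 CPM in it and at 390 to 840 CPM in the others. Cd83, an activation marker gene, was at 313 CPM against at most 37.1 CPM, and Clec10a, a lectin gene of dendritic cells and macrophages named after its values were seen, at 22.3 CPM against at most 1.75 CPM. Fscn1 and Ccr7 of the same list did not stand apart, at 5.84 and 16.8 CPM in ILC1 replicate 3. The other libraries had 1.40 to 92.4 and 12.8 to 35.7 CPM. Zbtb46 was lowest in ILC1 replicate 3, at 6.19 CPM against 7.48 to 10.6 CPM. The 9 T cell genes summed to 189 CPM in ILC1 replicate 3 against 40.6 to 64.5 CPM, with 7 of the 9 highest there. Cd3g, Cd8a, Cd3d and Cd3e were at 64.3, 39.0, 33.6 and 24.1 CPM, against at most 24.8, 7.56, 17.4 and 14.2 CPM elsewhere. Cd4 and Foxp3 were not highest there, at 5.67 and 0.926 CPM against at most 5.72 and 2.14 CPM. The 12 neutrophil genes summed to 75.7 CPM in that library, of which 58.0 CPM was Mmp8, a collagenase gene at no more than 0.528 CPM elsewhere. S100a8 and S100a9 were at 4.22 and 2.95 CPM and Ly6g at 0 in it, and 2 of the 12 genes were highest there. The part of these genes in the macrophage values was not tested. Cdh1 made up 377 of the 381 CPM of the 6 carcinoma genes there, with Epcam, a defining gene, at 4.34 CPM. The B cell and erythroid lists summed to at most 28.7 and 36.5 CPM in any library, and the 7 endothelial genes to 168 to 259 CPM, most of it Pecam1.

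**Figure D4:**
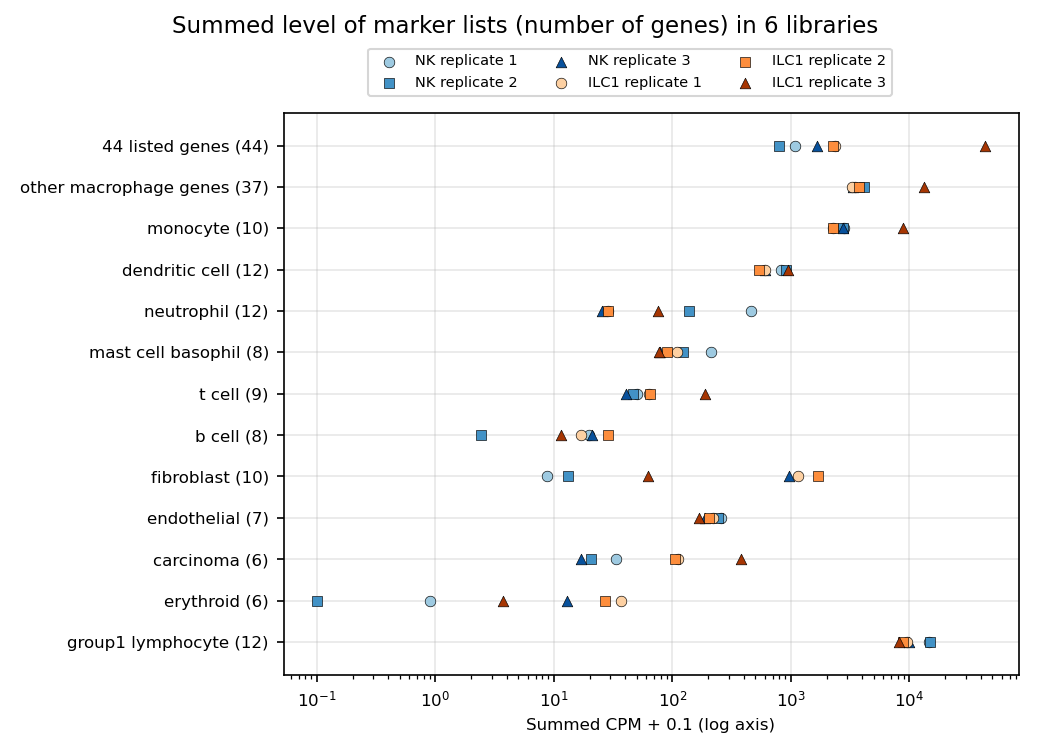
Summed CPM plus 0.1 (log axis) of the 44 genes and of 12 marker lists, with the number of genes in each list and 1 point per library. The listed macrophage genes reach 43550 CPM in ILC1 replicate 3, the fibroblast list is high in ILC1 replicates 1 and 2 and NK replicate 3, and the lymphocyte list is at 8105 to 15009 CPM in all libraries.

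The series compares ILC1s with NK cells, and for the listed genes that comparison gave large fold changes with large errors. The summed level had a mean ± SD of 16059 ± 23808 CPM over the 3 ILC1 libraries and of 1179 ± 449 CPM over the 3 NK libraries. With edgeR's quasi-likelihood test and Benjamini-Hochberg adjustment over 14475 genes, 0 of the 43 genes tested passed 0.05 in either direction, where 0.076% of all genes passed as higher and 0.00691% as lower in ILC1s. Adjusted p-values ran from 0.187 to 0.733. An unadjusted p under 0.05 was found for 25 of the 43, all higher in ILC1s, where 6.95% of all genes were. Limma-voom called 0 members and had 5 of the 43 at an unadjusted p under 0.05, all higher, where 8.2% of all genes were. DESeq2 called 2 genes higher, Spp1 and Ncf1 (background 2.94%), and gave no adjusted p for 35 of the 43. The log2 fold change (ILC1 minus NK) was positive for 42 of 43 genes, with a median of 3.95, against 0.0813 over all genes tested. For 21 of 43 genes all 3 ILC1 libraries were above all 3 NK libraries, where this held for 12.5% of all genes tested. With 3 libraries a side, the smallest two-sided p of an exact permutation test on 1 gene is 0.1.

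Among the members taken for their textbook role, Lyz2 had a log2 fold change of 5.28 ± 1.92 (SE; edgeR adjusted p = 0.290), and it was 1.00 without ILC1 replicate 3. Arg1 had 5.46 ± 2.09 (adjusted p = 0.304), Chil3 5.14 ± 2.02 (0.309), Mrc1 5.10 ± 2.28 (0.349) and Il1b 4.94 ± 1.82 (0.295). Without ILC1 replicate 3 these fell to 0.83, 1.49, 1.82 and 1.15. Cybb had 4.81 ± 1.87 (adjusted p = 0.307), C1qa 4.70 ± 1.80 (0.304), Trem2 4.38 ± 1.76 (0.315), Adgre1 3.95 ± 1.60 (0.317) and Apoe 3.74 ± 1.40 (0.298). Without that library they had 1.11, 1.45, 0.23, 0.66 and 0.87. Csf1r had 3.71 ± 1.89 (adjusted p = 0.400) and Spi1 3.22 ± 1.74 (0.423), and these 2 changed sign to -0.76 and -0.75 without ILC1 replicate 3. Spp1 had 2.85 ± 0.71 (edgeR adjusted p = 0.187; 1.83 without it), Gpnmb 1.50 ± 0.75 (0.394; 1.45 without it) and Ncf1 3.02 ± 0.81 (0.205; 1.63 without it). Ctsb had 1.48 ± 0.65 (adjusted p = 0.340; 0.39 without it).

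Without ILC1 replicate 3 the median over the 43 genes fell to 0.98, against 0.0383 over all genes, with 35 genes positive and 8 negative and a range of -1.21 (Cd163) to 2.19 (Vcan). Then 0 passed the adjusted test and 2 had an unadjusted p under 0.05, both higher in ILC1s, where 4.68% of all genes tested were. By role, the median moved from 2.93 to 0.18 for lineage receptors and factors, from 3.95 to 0.93 for general markers and from 4.54 to 1.36 for complement and lipid genes. It moved from 5.10 to 0.98 for scavenger and pattern receptors, from 5.13 to 1.50 for the 2 Fc and inhibitory receptors, from 3.02 to 0.48 for phagosome, oxidase and protease genes, from 4.57 to 1.49 for monocyte and matrix genes and from 4.80 to 1.19 for effector genes. Without NK replicate 3, 2 members passed edgeR's test as higher in ILC1s, Gpnmb (log2 fold change 2.84 ± 0.27, adjusted p = 0.0308) and Vcan (adjusted p = 0.0373), where 1.67% of all genes did. The fitted fold change of Vcan then rests on NK libraries with 0 and 0.616 CPM and depends on the prior count, so it is not given.

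**Figure D5:**
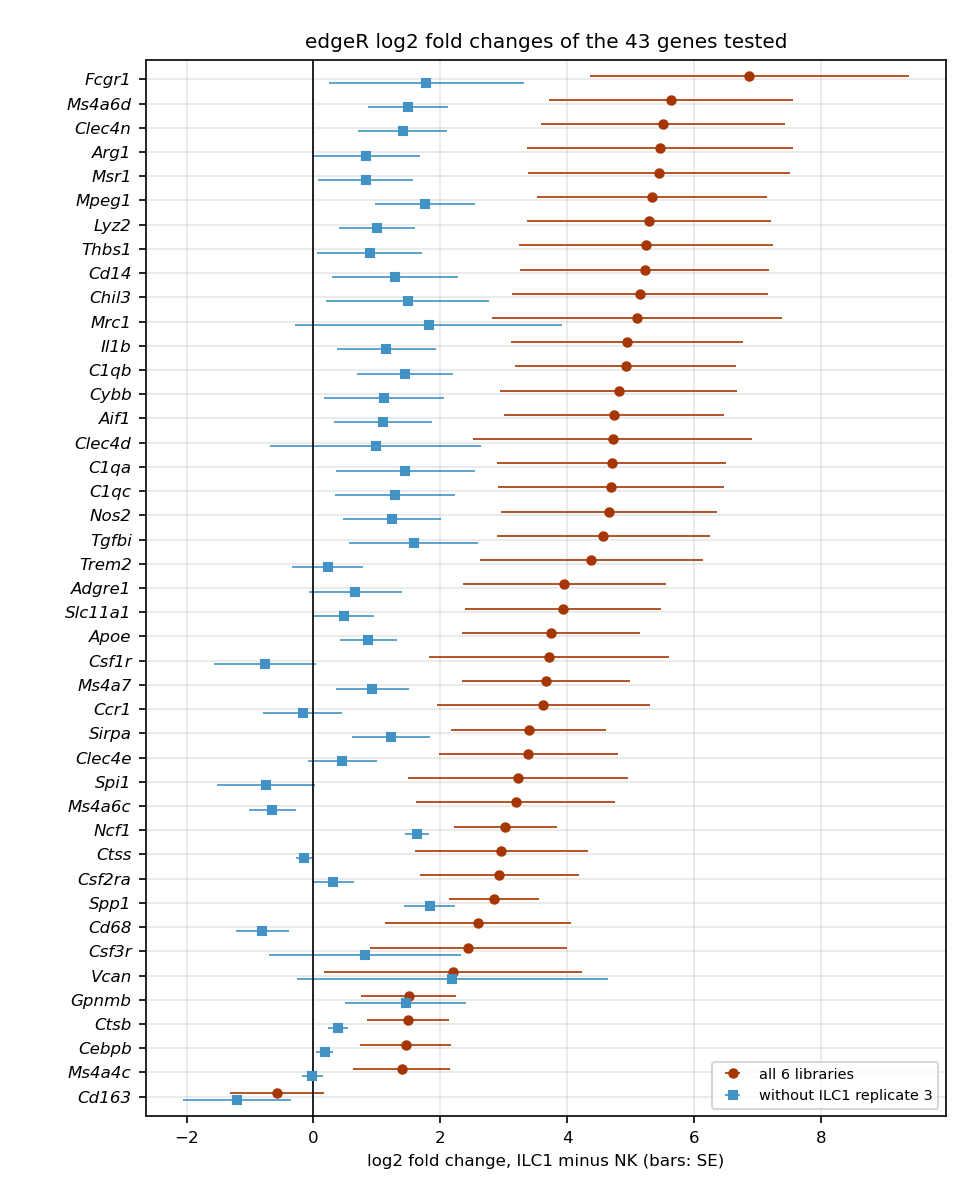
Log2 fold change of the 43 genes tested, ILC1 minus NK, with bars of 1 SE, from edgeR on all 6 libraries (circles) and without ILC1 replicate 3 (squares). With all libraries 42 of 43 values are above 0, at a median of 3.95, and without that library 35 are, at a median of 0.98.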

How the data were processed

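Messenger RNA of sorted NK cells and ILC1s was selected with oligo(dT), reverse-transcribed from random primers and sequenced as single reads of 50 bases, per the labels' protocols. The authors deposited raw read counts per gene symbol. Per the submitters' processing notes, the tools were HISAT2 2.1.0 and featureCounts 2.0.1, and the build was GRCm38. Which annotation was counted, whether strand was used and how reads with several matches were treated is not given in the sources used here. No molecular identifiers are described, so counts can include PCR copies.

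From these counts, CPM with TMM factors, RPKM with exon-union lengths of GENCODE M21 (which held all 44 symbols) and ratios within a library were computed. The ILC1 and NK libraries were compared with edgeR 4.0.16 in R 4.3.3 (filterByExpr, 14475 genes, robust quasi-likelihood fit, cell type as the only term, Benjamini-Hochberg adjustment over all genes tested, threshold 0.05). The SE of a log2 fold change is its size divided by the square root of the F statistic. The tests were checked on simulated data with 200 changed genes. DESeq2 1.42.0, limma-voom (limma 3.58.1), other scalings and filters, a replicate block and leaving out each library were alternatives. Shared stretches of 50 bases and overlapping exons were counted in GENCODE M21. Positions are 1-based.

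The 44 genes, their 8 roles and the 12 marker lists were chosen with earlier results of these data known. All 44 genes are named. Fold changes with errors are printed for 15 genes chosen for their textbook role and for members that passed a test. Other genes are up to 4 with the highest mean level per marker list, the 8 highest further macrophage genes, and defining markers that were low. Outside that rule are the lymphocyte genes Ncr1, Klrb1c, Itga1, Eomes and Itga2, and the genes said to be named after their values were seen.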

Additional observations from a re-analysis of the deposited data

How the results depend on the processing

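The count of listed genes past the test as higher in ILC1s was 0 with edgeR and 0 with RLE or upper-quartile scaling, with no low-count filter, with a minimum mean of 5 CPM and with limma-voom. DESeq2 gave 2 (Spp1, log2 fold change 2.88, adjusted p = 6.59e-05, and Ncf1, 3.06, adjusted p = 0.000475). With each library left out in turn it ran from 0 to 2, with 2 only without NK replicate 3 (Gpnmb at 2.84 and Vcan), and 0 listed genes were lower under any of these settings. Without NK replicate 1, NK replicate 2, ILC1 replicate 1 or ILC1 replicate 2, 0 of all genes tested passed in either direction, so the listed genes' 0 is no result about them. The median log2 fold change of 3.95 was 2.95 with limma-voom and, with single libraries left out, lay between 0.98, the value lacking ILC1 replicate 3, and 4.77, the value lacking NK replicate 3. That of Csf1r ran from -0.76 to 4.76 and that of Spi1 from -0.75 to 4.16, with the negative values without ILC1 replicate 3. Under a replicate block, in which libraries of the same number are paired, the median was 2.95 and 0 of the 43 genes passed, as did 0 of all 14475 genes tested. The labels give no meaning to the numbers, and deviations of same-numbered libraries correlated at -0.370, -0.368 and -0.515. With the longest transcript as the length, Gpnmb was at 15.6 RPKM in ILC1 replicate 3. Without TMM scaling 40 genes were still highest in ILC1 replicate 3, and 32 were over 10-fold above every other library. The causes of these shifts were not tested. Depth limits the lowest members, such as Cd163, which had 8 to 44 counts per library.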
